A study of Rattus norvegicus with 3 samples.

Results

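Integrins and the proteins that tie them to the actin cytoskeleton were followed across 3 soft tissues of the rat upper jaw. The set was chosen by gene symbol: every integrin alpha and beta subunit in the probe annotation except Itga6 and Itgb4, plus 18 named focal adhesion genes, each taken from its brightest probe set with 1 symbol. This gave 37 of the 14217 named genes on the arrays, namely 14 alpha subunits, 6 beta subunits and 17 proteins inside the cell; Itga2, Itga4, Itga10, Itgb8 and Fermt1 were not analysed here.

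Male wild-type Sprague Dawley rats of 9 weeks supplied every tissue, with 1 array each. Peri-implant connective tissue (PICT) was taken 4 weeks after upper first molars had been pulled at 5 weeks of age and titanium alloy implants put straight into the sockets. Oral mucosa connective tissue (OMCT) was taken 4 weeks after the same extraction with no implant, from the healed site. Periodontal connective tissue (PCT) came from around upper first molars left in place, with no surgery named. All were cut out of sections by laser microdissection. The sample labels give rat throughout, whereas the series' design text once says mice for PCT. The labels do not say how many animals stand behind an array. With 1 array per tissue there is no replicate spread, no test and no p-value; every difference is between these arrays.

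Integrins are receptors of 1 alpha and 1 beta subunit that span the membrane and hold cells to matrix or to other cells. The alpha subunit largely sets the ligand: collagen, laminin, fibronectin and other proteins carrying an arginine-glycine-aspartate (RGD) sequence, or, on leukocytes, counter-receptors of the ICAM and VCAM type. Inside the cell, talin and kindlin bind the beta tail and activate the receptor, and vinculin, alpha-actinin, paxillin, the ILK-PINCH-parvin complex and focal adhesion kinase build the plaque that links it to actin. In gingiva and periodontal ligament this machinery holds fibroblasts in a collagen matrix under load.

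Intensities are given as deposited, in the order PICT, PCT, OMCT where no tissue is written. Differences are of log2(intensity + 8.56) after each array's median was subtracted, called relative log2 differences; the pseudocount makes the differences of dim genes smaller than they are. A difference passed the rule for higher or lower at 2-fold or more (a relative log2 difference of 1 in size) where the brighter array lay at or above its own median probe set. Intensities of different probe sets are on different scales, so no gene's level is set against another's. The median intensity was 56.5 (PICT), 34.3 (PCT) and 57.4 (OMCT), so a difference as deposited exceeds the relative one by 0.60 for PICT minus PCT and 0.62 for OMCT minus PCT, while PICT and OMCT share nearly the same median (-0.02). PCT also had the highest ratio of 3' to 5' control signal, which grows as RNA is shortened: for Hk1 it was 2.80, whereas PICT had 1.58 and OMCT 1.97. Its part in the comparisons with PCT was not tested; PICT minus OMCT does not use that array. Keratinocyte markers were bright on all arrays, with summed intensities of 25347 (PICT), 26287 (PCT) and 21143 (OMCT) over 6 measured genes, so the RNA was not of connective tissue alone.

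**Figure D1:**
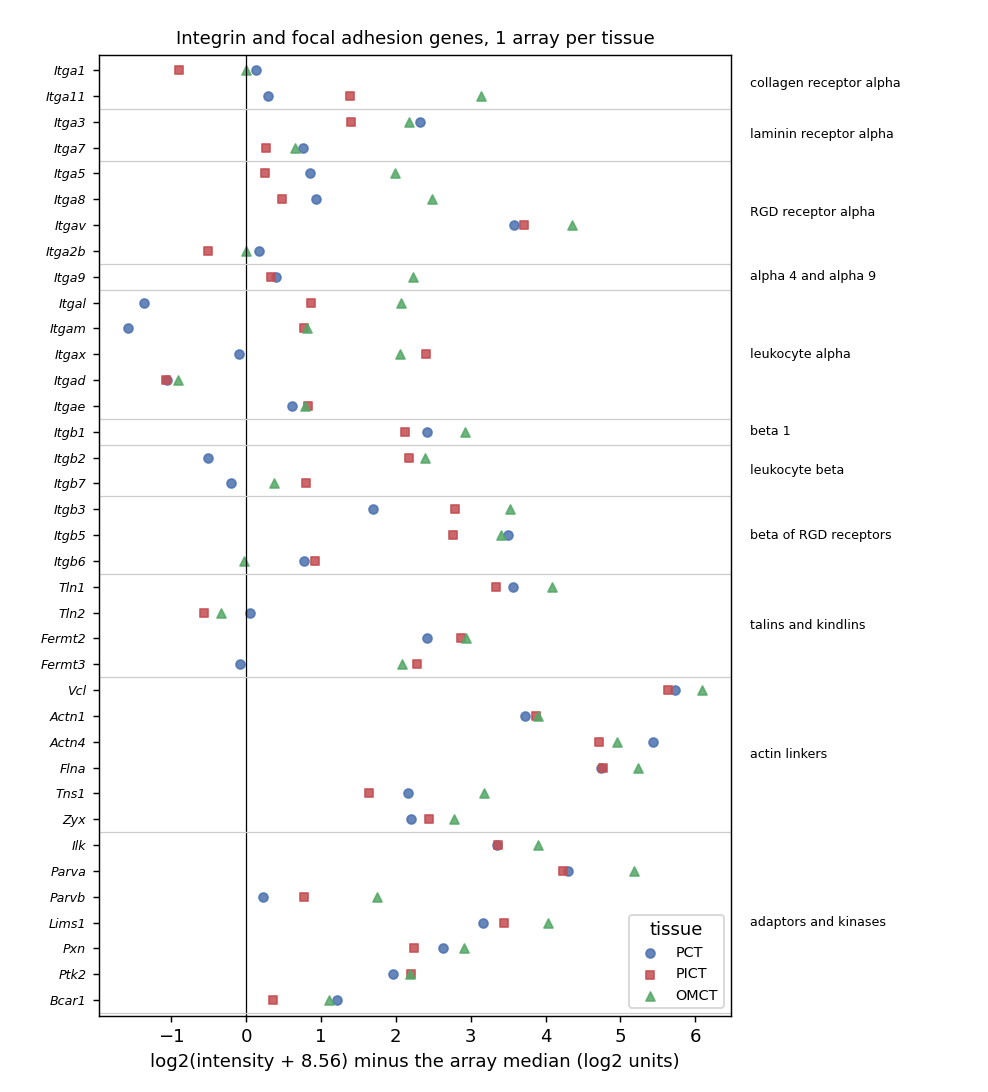
Level of each of the 37 genes on each array, as log2(intensity + 8.56) minus the array median, grouped by role; circles are PCT, squares PICT and triangles OMCT, 1 array each with no error bars, and levels should be compared along a row only. Itgal, Itgam, Itgax, Itgb2 and Fermt3 have a PCT point far to the left of the other points, and Itga5, Itga8, Itga9 and Itga11 an OMCT point far to the right.

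Between PICT and PCT, 8 of 37 genes were higher in PICT (21.6%) and 1 was lower (2.70%). Over all genes these shares were 3.98% and 3.37%, and 7.35% in either direction. The set is bright, with 36 of 37 genes at or above the median probe set on at least 1 array; among all genes that bright, 5.74% were higher and 4.86% lower. As deposited the counts were 10 higher and 0 lower, against 14.1% and 0.9% of all genes, 15% in all. The median relative log2 difference of the 37 genes was 0.02, beside -0.13 over all genes.

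Between OMCT and PCT, 12 genes were higher in OMCT (32.4%) and 0 lower, where 5.66% and 4.81% of all genes were, 10.5% in all (8.17% and 6.94% of the bright ones). As deposited 22 were higher and 0 lower, against 17.6% and 2.1% of all genes (19.7% in either direction). The median was 0.52, beside -0.08 over all genes. Between PICT and OMCT, 0 genes were higher in PICT and 6 lower (16.2%), where 4.15% and 4.46% of all genes were (5.99% and 6.43% of the bright ones), with a median of -0.52 beside -0.04. In either direction 8.61% of all genes passed. As deposited the counts were the same, 0 and 6, against 3.98% and 4.64% of all genes (8.62% in either direction). In that comparison 31 of 37 genes lay on the OMCT side of 0. In all, 14 genes passed the 2-fold rule in at least 1 comparison and 23 in none. The 3 comparisons share arrays, so their counts are not independent.

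**Figure D2:**
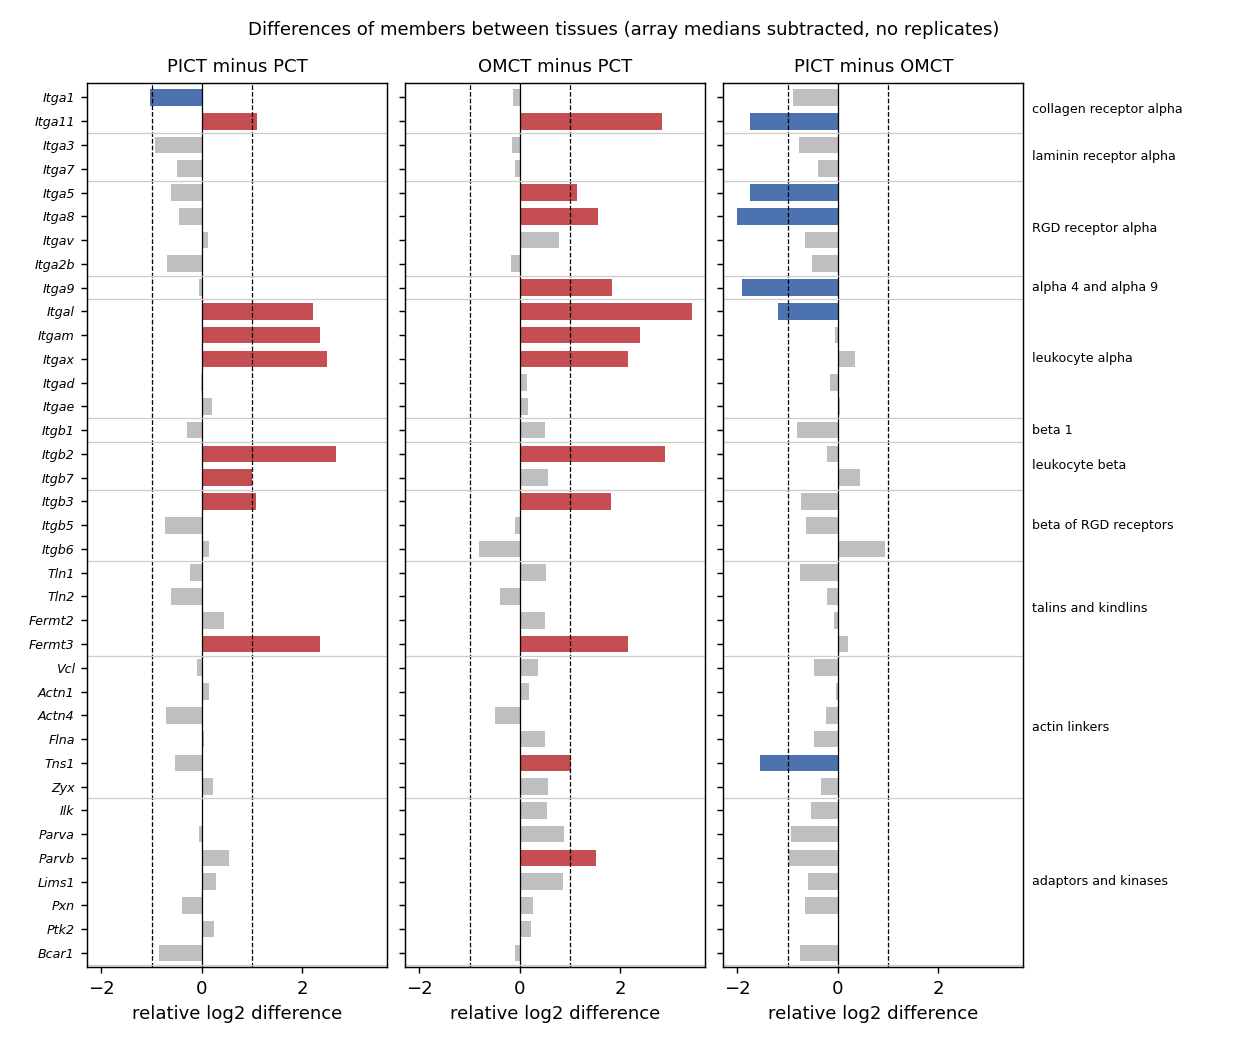
Relative log2 difference of each gene in the 3 comparisons, grouped by role; red bars are genes counted as higher, blue bars as lower and grey bars as neither, dashed lines mark a 2-fold difference, and there are no error bars with 1 array per tissue. The first panel holds 8 red bars and 1 blue, the middle panel 12 red, and the last panel 6 blue and no red.

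In PICT minus PCT the widest differences of the set were those of integrins of white blood cells and Fermt3; in OMCT minus PCT, Itga11, described further on, lay among them. Itgb2, the beta subunit common to this family, had an intensity of 286 (PICT), 21.6 (PCT) and 337 (OMCT). Its relative log2 difference from PCT was 2.69 in PICT and 2.90 in OMCT. PCT was thus the low array, and PICT and OMCT differed from each other by only -0.21. In bulk tissue, fewer cells of a type and less RNA per cell cannot be told apart.

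Of its alpha partners, Itgam, which pairs with Itgb2 to make the complement receptor of monocytes and neutrophils, had an intensity of 102 (PICT), 5.72 (PCT) and 107 (OMCT). Its differences from PCT were 2.35 and 2.40. The PCT signal barely exceeded the highest negative control of that array (5.71), so the size of the difference is not exact. Itgax, the alpha subunit typical of dendritic cells and many tissue macrophages, had 335, 31.5 and 266, with differences of 2.50 and 2.15. As with Itgb2 and Itgam, its levels in PICT and OMCT were less than 2-fold apart (0.35).

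Itgal, the alpha subunit of the leukocyte receptor for ICAM proteins that is prominent on lymphocytes, had an intensity of 110 (PICT), 8.13 (PCT) and 268 (OMCT). It differed from PCT by 2.23 in PICT and 3.43 in OMCT, the latter being the widest difference of any gene in the set. The PCT signal lay below the pseudocount (8.56) and not far above the highest negative control of that array (5.71). The sizes of these differences are therefore not exact. Itgal was the one leukocyte subunit that also separated the surgical sites, at -1.20 in PICT minus OMCT. With a pseudocount at the median intensity it was just short of 2-fold (-0.99). Fermt3, the kindlin of blood cells, followed the Itgb2 pattern with 307, 31.9 and 271, and differences of 2.36 and 2.16 from PCT.

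Not every leukocyte subunit passed 2-fold in both comparisons with PCT. Itgb7, a partner of lymphocyte alpha subunits, had 105 (PICT), 28.7 (PCT) and 76.6 (OMCT). Its difference of 1.003 for PICT minus PCT lay just inside the 2-fold limit and its 0.57 for OMCT minus PCT outside it. Itgae, which pairs with Itgb7 on lymphocytes lodged in epithelium and binds E-cadherin, had 107, 57.1 and 105, with differences of 0.21 and 0.16. Itgad, another partner of Itgb2, was below the median probe set on all arrays (22.5, 11.9 and 26.5) and differed by -0.01 and 0.15. In the RefSeq assembly GRCr8, Itgam, Itgax and Itgad follow each other on chromosome 1 with 0 protein-coding genes between neighbours; the first pair differed widely between PCT and the other arrays and Itgad did not reach 2-fold. Of the 7 leukocyte subunits measured, 5 were higher in PICT (71.4%) and 4 in OMCT (57.1%) than in PCT, with medians of 2.23 and 2.15. Over all genes 3.98% were higher in PICT and 5.66% in OMCT.

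Leukocyte markers moved with these integrins. Of 11 myeloid and pan-leukocyte genes, 10 were higher in PICT and 11 in OMCT than in PCT, with medians of 2.38 and 2.52, and 0 of 11 differed 2-fold between PICT and OMCT. Their summed intensity was 14076.5 (PICT), 1373 (PCT) and 14131 (OMCT), of which Lyz2 gave 7419, 797 and 7094. On each array 0 of the 11 was at or below the highest negative control. Ptprc, the common leukocyte phosphatase, had 280 (PICT), 11.3 (PCT) and 290 (OMCT). Of 7 T lymphocyte genes, 3 were higher in PICT (42.9%) and 1 in OMCT (14.3%) than in PCT, beside 3.98% and 5.66% of all genes. Their sums were 535, 118 and 768. Cd4 (157, 29.2 and 498), which rat macrophages also carry, accounts for much of the OMCT sum. Genes of the T cell receptor complex and its coreceptor did not move as one. Cd3e was low at 14.3, 7.41 and 17.8 (-0.08 for PICT minus PCT), whereas Cd3g had 87.3, 7.94 and 49.5 (1.94). Cd8a had 103, 0.41 and 31.4, at or below the highest negative control in PCT, and was higher in PICT than in PCT (3.04) and OMCT (1.503). The part of leukocyte content in the integrin differences was not tested. Without the leukocyte subunits and Fermt3, 29 genes remained, with 2 higher and 1 lower for PICT minus PCT, 7 and 0 for OMCT minus PCT, and 0 and 5 for PICT minus OMCT. For PICT minus PCT these shares, 6.90% higher and 3.45% lower, lay near the 3.98% and 3.37% of all genes. The 24.1% higher for OMCT minus PCT stood beside 5.66%, and the 17.2% lower for PICT minus OMCT beside 4.46%.

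**Figure D3:**
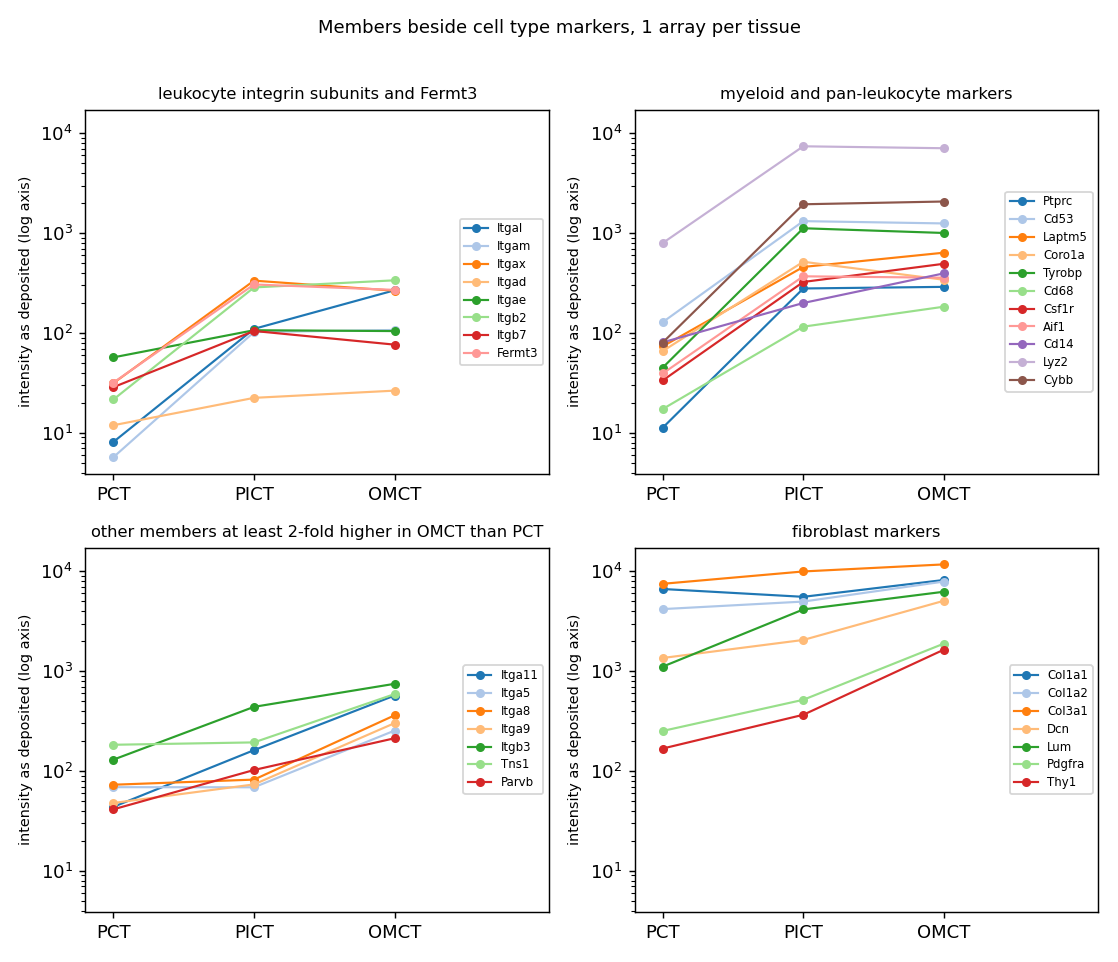
Intensity as deposited (log axis) on the PCT, PICT and OMCT arrays; lines join the values of 1 gene and do not stand for a time course. Top: 7 leukocyte integrin subunits and Fermt3 beside 11 myeloid and pan-leukocyte markers, most of which are low in PCT and alike in PICT and OMCT; bottom: the 7 other genes at least 2-fold higher in OMCT than PCT beside 7 fibroblast markers, most of which have their highest point in OMCT.

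The promoters of the genes that differed together are shown to set the leukocyte group beside the group high in OMCT that is described next. Of the 37 genes, 27 had a promoter window in the RefSeq table for GRCr8, some with several; Itgal and Itgb2 are named only. Printed are the 250 bases before the annotated start, 5' to 3' on the gene's strand, in lower case. In capitals are 2 motifs, on either strand. The first is GAGGAA, which reads TTCCTC on the other strand, a sequence bound by the myeloid factor PU.1. The second is the GC box GGGCGG, which reads CCGCCC on the other strand. Shorter parts of either motif were not counted. The windows are chr1:192089342-192089591 (+) for Itgam, chr1:192149799-192150048 (+) for Itgax, chr1:213636796-213637045 (-) for Fermt3, chr17:80410634-80410883 (-) for Itga8, chr8:127185039-127185288 (+) for Itga9 and chr8:72041182-72041431 (+) for Itga11.
Itgam: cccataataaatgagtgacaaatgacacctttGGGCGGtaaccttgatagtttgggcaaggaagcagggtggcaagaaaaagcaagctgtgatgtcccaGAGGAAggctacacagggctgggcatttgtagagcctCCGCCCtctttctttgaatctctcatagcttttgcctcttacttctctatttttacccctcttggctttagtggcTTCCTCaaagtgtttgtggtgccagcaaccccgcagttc
Itgax: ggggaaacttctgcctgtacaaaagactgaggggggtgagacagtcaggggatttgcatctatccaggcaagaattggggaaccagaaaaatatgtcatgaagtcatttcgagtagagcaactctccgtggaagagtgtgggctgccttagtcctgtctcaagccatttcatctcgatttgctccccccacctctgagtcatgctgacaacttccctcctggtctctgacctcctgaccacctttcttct
Fermt3: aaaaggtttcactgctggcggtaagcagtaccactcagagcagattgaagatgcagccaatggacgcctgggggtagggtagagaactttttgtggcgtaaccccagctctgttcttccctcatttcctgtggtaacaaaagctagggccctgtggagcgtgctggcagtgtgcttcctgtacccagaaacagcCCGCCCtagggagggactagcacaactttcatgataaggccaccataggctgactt
Itga8: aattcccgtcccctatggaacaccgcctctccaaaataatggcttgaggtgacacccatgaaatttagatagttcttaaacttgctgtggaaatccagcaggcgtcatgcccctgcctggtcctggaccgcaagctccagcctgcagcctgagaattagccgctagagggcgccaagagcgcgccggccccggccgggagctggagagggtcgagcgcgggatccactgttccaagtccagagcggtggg
Itga9: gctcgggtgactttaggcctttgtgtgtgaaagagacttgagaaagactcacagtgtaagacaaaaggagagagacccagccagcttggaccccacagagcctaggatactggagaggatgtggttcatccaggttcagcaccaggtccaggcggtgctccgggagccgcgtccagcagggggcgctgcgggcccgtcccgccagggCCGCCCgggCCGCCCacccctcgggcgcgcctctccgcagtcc
Itga11: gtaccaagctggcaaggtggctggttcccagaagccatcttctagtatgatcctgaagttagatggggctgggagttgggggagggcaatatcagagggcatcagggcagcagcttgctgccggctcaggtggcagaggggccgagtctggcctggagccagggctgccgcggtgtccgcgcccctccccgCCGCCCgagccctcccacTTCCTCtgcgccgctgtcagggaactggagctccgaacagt

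GAGGAA occurred 2 times before Itgam, once before Itga11, and not in the other 4 printed windows; 23.3% of all 33469 windows of this length hold it, as did 8 of 31 windows of the set. GGGCGG occurred 2 times each before Itgam and Itga9, once before Fermt3 and once before Itga11; 30.5% of all windows hold it, as did 18 of 31 windows of the set. The motifs do not overlap each other in these windows. Among the printed windows neither motif was confined to 1 group. So few windows cannot tell whether the groups as a whole differ in these motifs. Of the windows not printed, that of Itgb7 held neither motif and that of Itga5 held each once. The GC content was 48.4% for Itgam, 50.4% for Itgax and 53.2% for Fermt3, and 59.6% for Itga8, 65.2% for Itga9 and 65.2% for Itga11, beside a median of 51.2% over all windows. A match is a description of the letters, not a site.

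A second group was highest in OMCT and set the healed socket apart from the implant socket. Being highest in OMCT was not particular to this group. Of the 37 genes, 23 were highest there relative to the array medians and 32 by intensity as deposited. Itga11, the collagen receptor subunit of fibroblasts, had an intensity of 162 (PICT), 43.8 (PCT) and 570 (OMCT). As with Itgal, all 3 tissues were at least 2-fold apart, at 1.10 for PICT minus PCT, -1.74 for PICT minus OMCT and 2.84 for OMCT minus PCT. Itga1, the other collagen receptor subunit measured, had 26.4, 38.3 and 57.5. It went the other way between PICT and PCT at -1.02, just past the limit; as deposited its difference was -0.42, so the call rests on centring the arrays.

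Among the alpha subunits of RGD receptors, Itga8, which binds nephronectin and other RGD proteins, had 82.1 (PICT), 72.9 (PCT) and 361 (OMCT). Its relative log2 difference was -2.01 for PICT minus OMCT, the widest of that comparison in the set, and 1.56 for OMCT minus PCT. Itga5, the classical fibronectin receptor subunit, had 68.8, 68.9 and 254, with differences of -1.74 and 1.14. PICT and PCT lay close together for both genes, at -0.45 for Itga8 and -0.61 for Itga5, and OMCT stood alone. Itga9, which binds tenascin C, osteopontin and VCAM, showed the same order with 73.5, 47.9 and 302, and differences of -1.90 and 1.84.

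The broadly expressed subunits differed less. Itgav, the alpha subunit shared by the RGD receptors that bind vitronectin and latent TGF-beta, had 842 (PICT), 502 (PCT) and 1344 (OMCT), with relative differences of 0.13 (PICT minus PCT), -0.65 (PICT minus OMCT) and 0.78 (OMCT minus PCT). Itgb1, the partner of most matrix-binding alpha subunits, had 274, 221 and 492, with -0.30, -0.81 and 0.50. With the probe sets used, none of these passed 2-fold, although both genes exceeded 2-fold for OMCT minus PCT as deposited (1.40 and 1.13). A second Itgb1 probe set gave -1.12 for PICT minus OMCT and 1.36 for OMCT minus PCT.

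The laminin receptor subunits were near the same level in PCT and OMCT. Itga3, a partner of Itgb1 in epithelia, had 162 (PICT), 206 (PCT) and 289 (OMCT), and lay lowest in PICT relative to the array medians, at -0.93 against PCT and -0.78 against OMCT, just short of 2-fold. Itga7, best known from muscle, had 69.3, 63.7 and 95.1, with -0.49 and -0.39. Skeletal muscle markers summed to 3513, 2789 and 1761 over 6 genes, nearly all of it from Myh1. Itga2b, the platelet subunit, had 37.0, 39.7 and 57.4 and no difference past 0.69 in size. Of 5 platelet genes measured, the defining Gp9 and Gp5 were at or below the highest negative control on all arrays. The others did not share 1 order. Pf4 (340, 34.7 and 351) was higher than in PCT in PICT (2.41) and OMCT (2.43). Ppbp (370, 532 and 185) was lower than in PCT, at -1.11 in PICT and -2.10 in OMCT. Treml1 was dim at 21.2, 6.04 and 9.17.

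The beta subunits of RGD receptors went different ways. Itgb3, the partner of Itgav in osteoclasts, vessels and wound tissue, had 439 (PICT), 130 (PCT) and 747 (OMCT). It was higher than in PCT in PICT (1.09) and OMCT (1.82), and PICT minus OMCT was -0.73. The osteoclast markers Ctsk (1815, 440.3 and 3314) and Acp5 (616, 269 and 855) had the same order, whereas Calcr, the calcitonin receptor that marks mature osteoclasts, was dim on all arrays (8.76, 5.25 and 11.0); 3 of 6 listed osteoclast genes were measured, with sums of 2439.7, 714 and 4180.45, and their part was not tested. Itgb5, the vitronectin receptor partner of Itgav, had 432, 476 and 688 and differed by -0.74, -0.64 and -0.10. Itgb6, an epithelial subunit that activates latent TGF-beta, had 115, 64.9 and 56.2; it was the only gene of the set with its lowest relative level in OMCT, at 0.95 for PICT minus OMCT and -0.81 for OMCT minus PCT, both short of 2-fold.

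Epithelial markers did not share 1 order with Itgb6, which relative to the array medians was highest in PICT and lowest in OMCT. Of 13 measured epithelial genes from both lists, Krt1, Krt4, Krt78 and Tp63 had that order, 6 (Krt14, Cdh1, Dsp, Krt10, Krt13 and Cnfn) were lowest in OMCT but highest in PCT, and Krt5, Krt15 and Ivl were lowest in PICT. Krt15, a keratin of basal cells, had 186, 951 and 838, with -2.90 for PICT minus PCT and -2.10 for PICT minus OMCT. The keratinising upper-layer genes summed to 14476 (PICT), 10566 (PCT) and 2349 (OMCT) over 7 genes, of which 6 exceeded their OMCT level at least 2-fold in PICT; Ivl was at or below the highest negative control in PICT. Cdh1, E-cadherin and the ligand of the Itgae receptor, had 1595, 1243 and 532. Of 7 fibroblast markers, 4 ran towards OMCT like the second group. Dcn, Lum, Pdgfra and Thy1 were higher in OMCT than in PCT, and 3 (Dcn, Pdgfra and Thy1) higher in OMCT than in PICT. Col1a1, Col1a2 and Col3a1 differed little for OMCT minus PCT, at -0.32, 0.29 and 0.02. Relative to the array medians Col1a1 was highest in PCT. The fibroblast sums as deposited were 27584, 21217 and 42660, most of each from these collagens. Pdgfra, a defining fibroblast receptor, had 517, 252 and 1888. Endothelial sums were 1986, 2163 and 3318 over 6 genes, of which Pecam1, Vwf and Cldn5 were lower in PICT than in both other tissues. Smooth muscle and pericyte sums were 1901, 2494 and 3335 over 7 genes, with Rgs5 (570, 1592 and 1816) the largest part. For OMCT minus PCT, Myh11 (386, 459 and 285) was lower at -1.30 and Pdgfrb (122, 87.1 and 354) higher at 1.30. The part of cell content in the integrin differences was not tested.

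Inside the cell 0 to 2 of the 16 plaque proteins other than Fermt3 passed the 2-fold rule in a comparison, on the relative scale. Of these, 0 of 16 differed 2-fold between PICT and PCT (7.35% of all genes), and their relative differences ran from -0.85 (Bcar1) to 0.55 (Parvb). Between PICT and OMCT 1 of 16 passed the rule (6.25%, beside 8.61% of all genes), and 2 between OMCT and PCT (12.5%, beside 10.5%), over ranges of -1.54 to 0.01 and -0.49 to 1.53. Of the 20 integrin subunits, 8, 5 and 9 passed in PICT minus PCT, PICT minus OMCT and OMCT minus PCT. These include the 7 leukocyte subunits, whereas Fermt3 was left out of the 16. Of the 13 other subunits, 23.1%, 30.8% and 38.5% passed in the same order, beside 7.35%, 8.61% and 10.5% of all genes. As deposited, 9 of the 16 were higher in OMCT than in PCT (56.2%, beside 17.6% of all genes) and 2 higher in PICT than in PCT (12.5%, beside 14.1%).

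The plaque genes that did pass were Tns1 and Parvb. Tns1, tensin, which ties the beta tail to actin in long fibrillar adhesions rich in fibronectin, had 194 (PICT), 183 (PCT) and 589 (OMCT). It was lower in PICT than in OMCT by the 2-fold rule (-1.54), and its 1.02 for OMCT minus PCT lay just inside the limit and fell below it under 4 of the alternatives. Parvb, a parvin that joins ILK to actin, had 102, 41.4 and 213, with 1.53 for OMCT minus PCT and -0.98 for PICT minus OMCT, just outside. Its other probe sets gave -1.40 and -0.69 for PICT minus OMCT. Its relatives in the ILK complex were also highest in OMCT, short of 2-fold: OMCT minus PCT was 0.88 for Parva, 0.87 for the PINCH gene Lims1 and 0.55 for Ilk. PICT lay above PCT for Lims1 (0.28) but not for Parva (-0.06).

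Of the activators, Tln1, the main talin, had 647 (PICT), 498 (PCT) and 1106 (OMCT), and Fermt2, the kindlin of connective tissue, had 465, 221 and 495; their differences ran between -0.75 and 0.52. Tln2 was dim at 35.4, 35.7 and 43.5. Vcl, vinculin, which bears load between talin and actin, had 3215, 2264 and 4500.3, with differences from PCT of -0.10 in PICT and 0.37 in OMCT. Its other probe sets gave -0.84 and -0.06 for PICT minus PCT, and -0.50 and 0.30 for OMCT minus PCT. Actn1, Actn4, Flna and Zyx, actin crosslinkers and a strain sensor, stayed within 0.72 in size in every comparison. Among the signalling adaptors, Ptk2, focal adhesion kinase, had 290.1, 158 and 292, and Pxn, paxillin, had 300.5, 257 and 486. With the probe sets used, neither passed 0.66 in size. A dimmer Ptk2 probe set gave 0.93 for PICT minus PCT and 0.91 for OMCT minus PCT. Bcar1, the stretch-sensitive Cas adaptor, was lowest in PICT relative to the array medians, at -0.85 and -0.75 with 74.9, 90.7 and 134.

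Several genes had more than 1 probe set, which gives a technical check within each array. Of 15 such genes, all probe sets had the same sign in 14 for PICT minus OMCT (Itgb5 excepted). The count was 12 for OMCT minus PCT (Itgb5, Tln2 and Vcl excepted) and 8 for PICT minus PCT. The median range between probe sets of these genes was 0.49, 0.61 and 0.68 in that order. Every gene with several probe sets that passed the 2-fold rule kept 1 sign: Itga8, Itga9 and Tns1 for PICT minus OMCT, and the same genes with Parvb for OMCT minus PCT. Over all 4525 genes measured more than once, the SD of the difference between probe sets of a gene was 0.49 in each comparison. The other Itgb1 probe set (280, 152 and 629) gave 1.36 for OMCT minus PCT in place of 0.50. It also passed 2-fold for PICT minus OMCT, at -1.12 in place of -0.81. The other Itgav probe sets gave 0.89 and 1.51 for OMCT minus PCT in place of 0.78. For Itgav 1 of 3 probe sets also passed 2-fold for PICT minus PCT (1.16 against 0.13 and 0.03). The dimmer probe set of Itga9 (8.66, 1.29 and 12.9) gave -0.30 for PICT minus OMCT. Itgb2, Itgal, Itgam, Itgax, Itgb7, Fermt3, Itga5, Itga11 and Itgb3 have 1 probe set each, so no other probes check them.

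**Figure D4:**
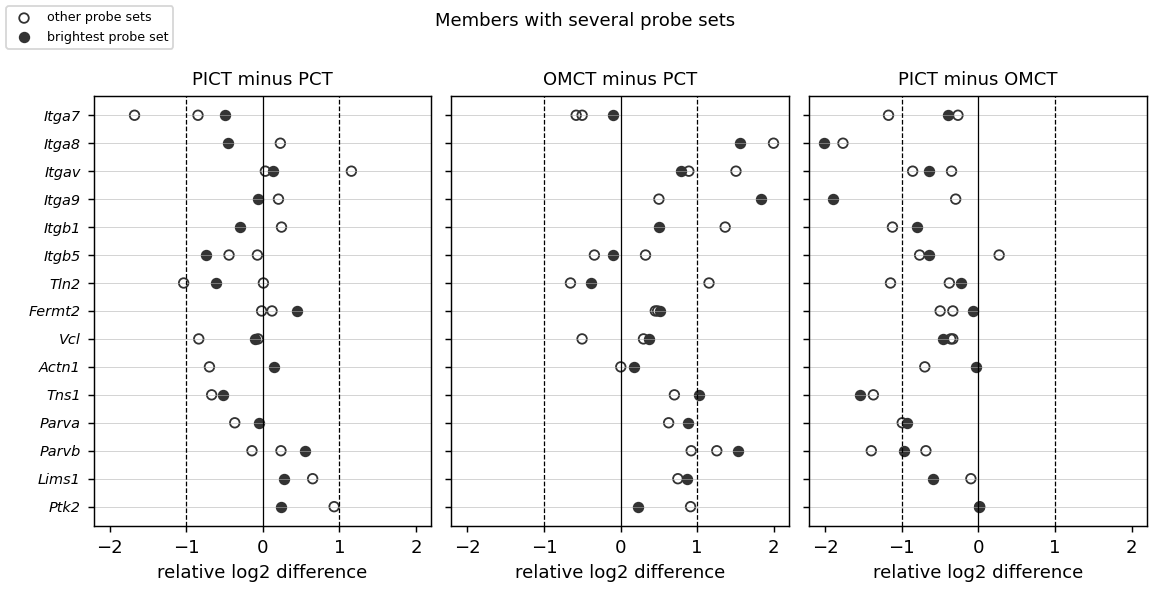
Relative log2 difference of every probe set of the 15 genes with more than 1; filled circles are the brightest probe set, used in the text, open circles the others, and dashed lines mark 2-fold. Both probe sets of Itga8 and of Tns1 lie beyond -1 for PICT minus OMCT, while those of Itga9 lie at -1.90 and -0.30.

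Of 46 further adhesion genes measured from a list of 49, 2 were higher and 3 lower for PICT minus PCT (median -0.14), 0 and 7 for PICT minus OMCT (median -0.22), and 7 and 2 for OMCT minus PCT (median 0.16). The shares for PICT minus PCT, 4.35% and 6.52%, stood beside 3.98% and 3.37% of all genes; the 15.2% lower for PICT minus OMCT stood beside 4.46%, and the 15.2% higher and 4.35% lower for OMCT minus PCT beside 5.66% and 4.81%. Apbb1ip, the Rap1 effector of blood cells that brings talin to integrins, had 213 (PICT), 23.3 (PCT) and 125 (OMCT), a difference of 2.20 for PICT minus PCT and 1.45 for OMCT minus PCT. Rap1b, a small GTPase that activates integrins, had 1852, 494 and 1842 (1.29 and 1.26). Both were low in PCT, as the leukocyte integrins were. Lims2, a second PINCH gene, was lower in PICT than in PCT (-1.19) and OMCT (-1.35), and Sdc4 (syndecan 4, a coreceptor for fibronectin) and Tns4 were lower in PICT than in PCT, at -1.16 and -1.10. Flnc (filamin C) and Dab2 (an endocytic adaptor of integrins) led the genes lower in PICT than in OMCT, at -1.59 and -1.50. Lpxn, leupaxin, a paxillin relative of blood cells and muscle, differed most between OMCT and PCT at 1.90, followed by Dab2 at 1.51; Fhl2 (-1.15) and Sdc4 (-1.12) were lower in OMCT. As deposited the counts were 6 higher and 0 lower for PICT minus PCT, 0 and 8 for PICT minus OMCT, and 18 and 0 for OMCT minus PCT; the 13.0% higher for PICT minus PCT was near the 14.1% of all genes, and the 39.1% for OMCT minus PCT stood beside 17.6%.

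Of 27 integrin ligand genes measured from a list of 30, 8 were higher and 3 lower for PICT minus PCT (9 and 0 as deposited), 3 and 8 for PICT minus OMCT, and 7 and 2 for OMCT minus PCT (12 and 1 as deposited); the medians were -0.24, -0.54 and 0.29. The shares higher and lower were 29.6% and 11.1% for PICT minus PCT, beside 3.98% and 3.37% of all genes. They were 11.1% and 29.6% for PICT minus OMCT, beside 4.15% and 4.46%, and 25.9% and 7.41% for OMCT minus PCT, beside 5.66% and 4.81%. Fn1, fibronectin, the ligand of the Itga5 receptor, had 1784 (PICT), 162 (PCT) and 1442 (OMCT). PICT and OMCT were thus both above PCT for Fn1, by 2.80 and 2.47, whereas Itga5 was high in OMCT alone. Tnc, a ligand of the Itga9 receptor, had 379, 67.2 and 2159, highest in OMCT as Itga9 was, with -2.46 for PICT minus OMCT and 4.22 for OMCT minus PCT. Tnn, a second tenascin, had 978, 173 and 4367 and the same order, with 1.84 for PICT minus PCT, -2.13 for PICT minus OMCT and 3.97 for OMCT minus PCT. Spp1, osteopontin, which also binds Itga9 and Itgav receptors, was highest in PICT instead, with 3839.8, 58.5 and 1035. It was 5.24 above PCT and 1.90 above OMCT, and 3.34 for OMCT minus PCT.

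The adhesion molecules that leukocyte integrins bind did not follow the leukocyte subunits as one. Icam1, the main ligand of the Itgal receptor, had 537 (PICT), 216 (PCT) and 566 (OMCT). It was lowest in PCT like Itgb2, and PICT and OMCT were alike (-0.06). Its differences from PCT were below 2-fold, at 0.68 in PICT and 0.73 in OMCT. As deposited both exceeded 2-fold (1.28 and 1.36). Vcam1, bound by Itga9 and by receptors of activated lymphocytes, had 125, 33.3 and 29.5 and was higher in PICT than in both PCT (1.07) and OMCT (1.83). Madcam1, the gut homing ligand of Itgb7 receptors, was dim at 20.2, 6.23 and 3.97. The latent growth factors that Itgav receptors activate were lowest in PICT: Tgfb1 had 41.3, 78.2 and 173, with -1.40 against PCT and -1.84 against OMCT, and Tgfb3 had 115, 137 and 396, with -1.69 against OMCT. Of the other ligands lower in PICT than in PCT, Vwf differed by -1.24 and Mfge8, a bridge between Itgav receptors and dying cells, by -1.09. Cdh1 (-1.83) and Lamb3 (-1.13) were the ligand genes lower in OMCT than in PCT.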

How the data were processed

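RNA from 3 laser-microdissected tissues was amplified and biotin-labelled (3'IVT Express) and read on Affymetrix rat arrays, per the labels. Each of 31099 probe sets has a linear intensity in the table deposited by the authors; their summarisation and scaling of arrays: not given in the sources used here. Gene names came from the platform annotation of 2016: 20826 probe sets other than controls had 1 symbol, 436 had several and 9831 none. All 37 symbols of the set match RefSeq (GRCr8). The brightest probe set per gene was kept (highest mean log2 value), values were taken as log2(intensity + 8.56), the 20th percentile of all values, and each array's median was subtracted. With 1 array per tissue no test was run, and the number of arrays limits the precision. Members, gene lists and motifs were chosen with earlier results of these data known. Text gives all 37 genes, with intensities for those past the 2-fold rule; of the further lists, up to 3 genes in each direction with the largest differences, plus others named after their values were seen. The counting code was tested on simulated data. Tools were Python 3.11.15, numpy 2.4.6, pandas 2.3.3 and matplotlib 3.10.9. Alternatives covered the scaling, pseudocount, probe set and filter; centring on the BioB, BioC, BioDn and CreX hybridisation controls was added after the data were seen.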

Additional observations from a re-analysis of the deposited data

How the results depend on the processing

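No called difference changed sign under the 7 alternatives that give differences, and 17 of 666 differences recomputed outside the unscaled setting moved by more than the SD between probe sets of a gene. That share does not measure robustness, because part of the 666 could not move freely. Centring on hybridisation controls shifts all genes of a comparison by the same amount, so it moves all or none of them. The mean over probe sets leaves genes with 1 probe set unchanged. Without scaling, the count higher in OMCT than in PCT was 22, the count lower in PICT than in PCT was 0, and the medians were 0.63 (PICT minus PCT) and 1.14 (OMCT minus PCT), as adding back the array medians does by construction. The single gene lower in PICT than in PCT, Itga1, was also lost (count 0) with trimmed mean scaling, a pseudocount at the median (48.4) and centring on hybridisation controls. With a pseudocount at the 5th percentile (1.18) the count was 2, Itga3 being added, and Itgb6 made the count higher in PICT than in OMCT 1. The same setting added Itga1 and Parvb to the genes lower in PICT than in OMCT, a count of 8. The mean over probe sets added Parvb to them, a count of 7. Tns1 fell out of the OMCT minus PCT calls under trimmed mean scaling, quantile normalization, the lower pseudocount and the mean over probe sets. A pseudocount at the median also lost Itga11 and Itgb7 for PICT minus PCT and Itgal for PICT minus OMCT. Itgb2, Itgam, Itgax and Fermt3 kept their calls against PCT under all 7. No paired analysis was possible because each tissue had 1 array. No replicate could be left out for the same reason.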
